A study of Homo sapiens with 8 samples.

Results

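The tissue kallikreins expressed in epidermis, KLK5 to KLK14, were followed in a cutaneous squamous carcinoma line in which a Polycomb subunit had been targeted. The 10 genes were taken by name, each needed an annotated probe set, and all 10 had exactly 1, out of 14884 named genes on the array. Gene expression was measured on 8 whole-transcript microarrays of SCC13, an established human line from a squamous cell carcinoma of the skin. Cells carried 1 of 4 short hairpins, shRING1B, shEZH2, shBMI1 or the control shGFP, with 2 arrays each. RING1B and BMI1 are subunits of Polycomb repressive complex 1, EZH2 is the methyltransferase of complex 2, and GFP is a jellyfish protein that human cells lack. The title of the series concerns the inflammatory function of such carcinomas under Polycomb repression.

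The labels name no treatment other than the hairpin. Nothing in them tells if a hairpin's 2 arrays stand for separate cultures or for 1, so p-values measure the spread of arrays, possibly a technical one. With 2 arrays against 2, an exact two-sided permutation test cannot give less than p = 0.333, so differences were tested with limma over all 14884 genes and adjusted by Benjamini-Hochberg. A gene "passed" with an adjusted p under 0.05. Deposited values were log2 expression after RMA, array medians lay between 5.49 and 5.52, and arrays of a hairpin correlated at 0.995 to 0.996, against 0.992 to 0.996 between hairpins. EZH2 fell by 0.91 ± 0.12 (SE, n = 2 each) on the log2 scale with shEZH2 (adjusted p = 0.0183 by limma), a call lost on leaving out either array of shEZH2 or of shGFP (adjusted p up to 0.179). RNF2, the gene of RING1B, and BMI1 were not analysed here, so those 2 knockdowns were not checked. Sample titles begin with SCCL3 for shEZH2 and with SCC13 for the other 6 arrays, while the field for the line gives SCC13 throughout. The shEZH2 hairpin and whatever that prefix stands for cannot be told apart.

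Tissue kallikreins are secreted serine proteases encoded side by side on chromosome 19. In the upper epidermis they are released from keratinocytes as inactive precursors, activate one another in a cascade started mainly by KLK5, and cut the corneodesmosomes that hold dead surface cells together. LEKTI, the product of SPINK5, and smaller inhibitors such as SLPI restrain them, and loss of LEKTI causes the barrier disease Netherton syndrome. Of the squamous keratinocyte markers, KRT5 read 10.1 to 10.6, KRT14 9.04 to 9.72, SFN 11.4 to 11.6 and DSG3 9.22 to 10.4 over the 8 arrays. KRT16 read 7.22 to 7.86 and PKP1 7.33 to 7.69. Of the leukocyte markers, CD68 read 10.8 to 11.1, CD14 5.84 to 6.71 and LYZ 4.26 to 4.58. Brightness alone therefore does not set cell types apart. In RNA from a whole culture, fewer cells making a kallikrein and less RNA per cell cannot be told apart.

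The start regions of KLK5, KLK6 and KLK7 are shown because these neighbours gave the 3 smallest p-values among the members with shRING1B, that of KLK12 because its mean differed least from the control there, and that of KLK13 because it held as many CG as KLK6 with a log2 fold change of only 0.10. In mammals Polycomb complexes are found mostly at start sites rich in the dinucleotide CpG, so each CG is set in capitals. Each run is the 250 bases just before an annotated start in RefSeq (GRCh38.p14, minus strand, 5′ to 3′). KLK7 has 3 annotated windows in that table and KLK13 has 2, of which the one listed first is shown. The windows are chr19:50953039-50953288 for KLK5, chr19:50969592-50969841 for KLK6, chr19:50983918-50984167 for KLK7, chr19:51035003-51035252 for KLK12 and chr19:51065093-51065342 for KLK13.
KLK5: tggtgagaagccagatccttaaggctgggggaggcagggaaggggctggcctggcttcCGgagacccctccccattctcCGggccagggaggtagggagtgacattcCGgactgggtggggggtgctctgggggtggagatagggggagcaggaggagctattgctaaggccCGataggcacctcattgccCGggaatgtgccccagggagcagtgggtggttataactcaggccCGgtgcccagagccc
KLK6: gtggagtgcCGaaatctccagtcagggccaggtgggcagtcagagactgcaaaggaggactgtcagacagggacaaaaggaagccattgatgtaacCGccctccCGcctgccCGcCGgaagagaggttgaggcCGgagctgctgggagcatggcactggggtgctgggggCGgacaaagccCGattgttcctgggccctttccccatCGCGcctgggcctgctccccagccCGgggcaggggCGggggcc
KLK7: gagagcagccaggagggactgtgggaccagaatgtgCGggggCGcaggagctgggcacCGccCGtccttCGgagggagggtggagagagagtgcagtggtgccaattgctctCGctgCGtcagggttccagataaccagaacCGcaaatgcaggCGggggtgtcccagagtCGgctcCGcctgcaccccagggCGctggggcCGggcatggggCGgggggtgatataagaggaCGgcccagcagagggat
KLK12: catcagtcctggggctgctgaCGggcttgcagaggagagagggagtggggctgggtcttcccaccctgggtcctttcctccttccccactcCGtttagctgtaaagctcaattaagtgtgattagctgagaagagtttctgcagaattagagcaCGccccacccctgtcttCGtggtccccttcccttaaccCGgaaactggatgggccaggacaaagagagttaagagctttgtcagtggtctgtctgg
KLK13: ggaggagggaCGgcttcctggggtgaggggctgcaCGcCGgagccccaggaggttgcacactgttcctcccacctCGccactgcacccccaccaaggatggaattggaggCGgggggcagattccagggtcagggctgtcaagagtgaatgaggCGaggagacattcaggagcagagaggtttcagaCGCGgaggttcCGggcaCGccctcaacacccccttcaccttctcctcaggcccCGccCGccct

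KLK7 held 15 CG in its 250 bases, KLK6 held 12 and KLK5 held 6. Among the others KLK13 held 12, KLK10 held 8, KLK12 held 5, and KLK9, KLK11 and KLK14 held 3 each, so the counts of the 2 sets overlapped. Of the 10 members 9 had a window, and KLK8 had none in the table. The median over those 9 was 6 CG, against a median of 11 and quartiles of 3 and 23 over 27305 genes with a window. Only KLK6, KLK7 and KLK13 reached the median of all genes. The Sp1-type box GGGCGG, searched on both strands, stood in 5 of the 9 windows and in 42.3% of all windows. The TATA motif TATAAA stood in 0 of 9 (11.1% of all) and the AP-1 motif TGANTCA in 0 of 9 (6.6% of all), which says only that these letters are not in the windows searched. GGGCGG itself contains a CG.

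No epidermal kallikrein passed the adjusted threshold in any of the 3 comparisons with shGFP or the 3 between hairpins. All genes called made up 0% with shRING1B against shGFP, 0.732% with shEZH2 against shGFP and 0% with shBMI1 against shGFP. Between hairpins they made up 0.0134% for shRING1B against shBMI1, 0.578% for shRING1B against shEZH2 and 0.974% for shEZH2 against shBMI1. The member that stood out in size was KLK7, which was 2.75-fold higher on the shRING1B arrays than on the shGFP arrays (95% interval 1.55 to 4.87, limma, not adjusted over genes). With shRING1B its neighbours KLK5, KLK6 and KLK8 were also higher on both arrays than on both shGFP arrays. The same held for 18.2% of all genes.

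KLK7, the chymotrypsin-like protease that cuts corneodesmosin and desmocollin 1, read 8.23 and 9.17 on the shRING1B arrays, 7.18 and 7.05 with shEZH2, 6.36 and 7.38 with shBMI1, and 7.15 and 7.33 with shGFP. Both shRING1B arrays lay above the other 6 arrays, the closest of which was at 7.38. The log2 fold change of shRING1B over shGFP was 1.46 ± 0.36 (SE, n = 2 each; adjusted p = 0.346 by limma). Against shBMI1 it was 1.83 ± 0.36 (adjusted p = 0.245) and against shEZH2 1.58 ± 0.36 (adjusted p = 0.107). Only the last of these passed under any alternative, with adjusted p = 0.0466 when the dimmest 30% of genes were left out.

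In size alone, 1 of the 14884 genes had a larger log2 fold change than KLK7 with shRING1B against shGFP. That gene was CRCT1, at 1.47, named here after its value was seen. The 2 arrays of a hairpin disagreed on KLK7 more than on most genes. The gap was 0.94 log2 units between the shRING1B arrays, larger than for 99.75% of genes, and 1.02 between the shBMI1 arrays, larger than for 99.89% of genes. Between the shEZH2 arrays it was 0.13, and between the shGFP arrays 0.18, where the median gap of all genes was 0.10 and 0.12. The log2 fold change over shGFP was 0.99 without shRING1B replicate 2 and 1.93 without shRING1B replicate 1.

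Group means of KLK7 were 8.70 with shRING1B, 7.12 with shEZH2 and 6.87 with shBMI1, against 7.24 with shGFP, so the order from high to low was shRING1B, shGFP, shEZH2, shBMI1. The differences of shEZH2 and shBMI1 from shGFP were -0.12 ± 0.36 (95% interval -0.95 to 0.70) and -0.37 ± 0.36 (-1.20 to 0.45). The last 3 groups in that order did not differ beyond their spread, though the intervals leave room for a change of either sign.

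**Figure D1:**
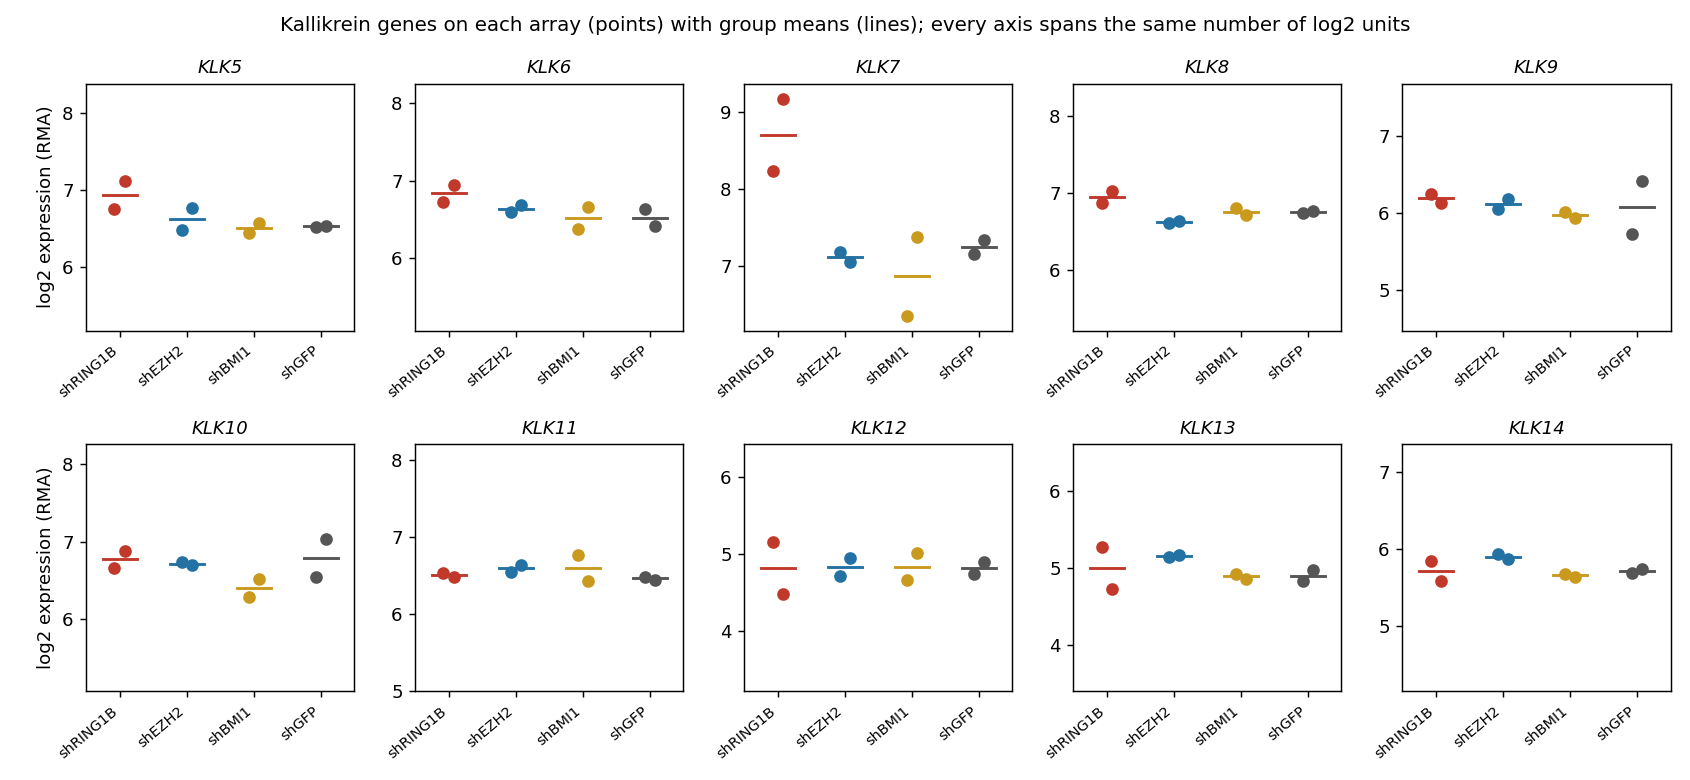
RMA log2 expression (vertical axes, each spanning the same number of log2 units) of the 10 kallikrein genes on the 8 arrays, by hairpin; points are arrays and lines are means of 2. KLK7 is at 8.23 and 9.17 with shRING1B and at or below 7.38 on every other array, and most other members stay within a narrow band.

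KLK5, the trypsin-like protease that activates itself, KLK7 and KLK14, read 6.75 and 7.12 with shRING1B, 6.48 and 6.76 with shEZH2, 6.43 and 6.57 with shBMI1, and 6.52 and 6.53 with shGFP. The shRING1B arrays were both above the shBMI1 and shGFP arrays but overlapped those of shEZH2 by a small margin. Its log2 fold change over shGFP was 0.41 ± 0.14 (SE, n = 2 each; adjusted p = 0.474 by limma), or 1.32-fold. KLK14, another trypsin-like enzyme of the cascade, read 5.85 and 5.58 with shRING1B, 5.93 and 5.88 with shEZH2, 5.68 and 5.65 with shBMI1, and 5.70 and 5.75 with shGFP. The shEZH2 arrays were the highest pair, 0.18 ± 0.10 above shGFP (adjusted p = 0.430) and 0.24 ± 0.10 above shBMI1 (adjusted p = 0.321). With shRING1B the difference of KLK14 from shGFP was -0.0067 ± 0.10, and the 2 shRING1B arrays lay on either side of both control arrays.

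KLK8, a trypsin-like protease also known as neuropsin, read 6.87 and 7.03 with shRING1B, 6.61 and 6.64 with shEZH2, 6.80 and 6.72 with shBMI1, and 6.75 and 6.76 with shGFP. It was highest on the shRING1B arrays and lowest on the shEZH2 arrays, with no overlap of either pair with any other hairpin. The log2 difference between these extremes was 0.33 ± 0.09 (SE, n = 2 each; adjusted p = 0.158 by limma). Against shGFP it was 0.20 ± 0.09 with shRING1B (adjusted p = 0.608) and -0.13 ± 0.09 with shEZH2 (adjusted p = 0.514). KLK6, a trypsin-like protease best known from brain, read 6.72 and 6.95 with shRING1B, 6.59 and 6.69 with shEZH2, 6.37 and 6.66 with shBMI1, and 6.63 and 6.41 with shGFP. Its shRING1B arrays lay above all others, by 0.32 ± 0.13 over the shGFP mean (adjusted p = 0.568).

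The shRING1B comparison can be read against all genes. At an unadjusted p under 0.05, 3 of 10 members were higher (KLK5, KLK6 and KLK7) and 0 lower, where 4.8% of all genes were higher and 3.8% lower. The higher ones were KLK7 and KLK13 without shRING1B replicate 2, KLK7 and KLK9 without shGFP replicate 2, and KLK6 and KLK7 without shGFP replicate 1. Over all alternatives 2 to 4 members were higher at that threshold, KLK7 in each. Both shRING1B arrays lay above both shGFP arrays for 4 members (KLK5 to KLK8), where this held for 18.2% of all genes. None lay below both, where 19.1% of all genes did. The median log2 fold change was 0.11 over the 10 members, 8 of them positive, and -0.0028 over all genes. These 10 genes are few, and KLK5 to KLK8 are immediate neighbours among the measured genes of the locus. Outside the 10, both shRING1B arrays also lay above both shGFP arrays for the tissue kallikreins KLK1, KLK2 and KLK4.

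**Figure D2:**
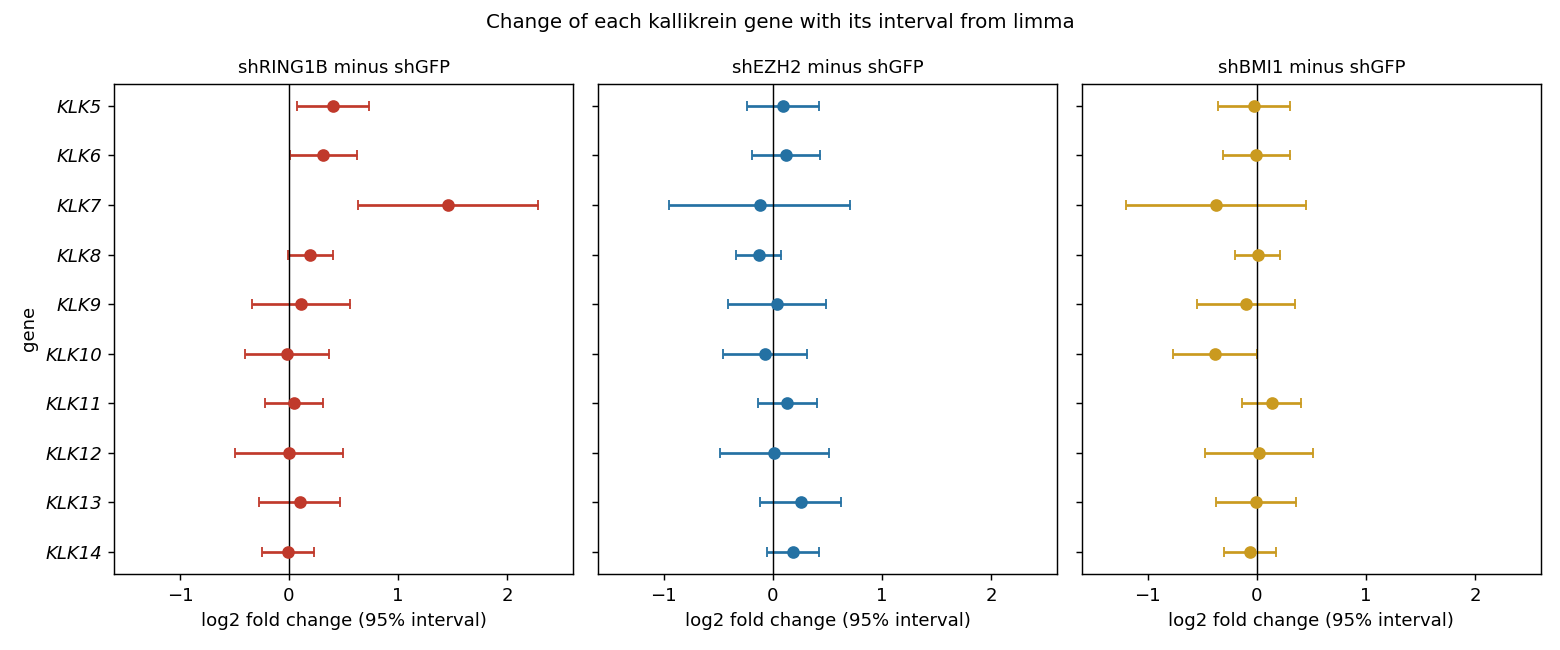
Log2 fold change over shGFP (horizontal axis) of each kallikrein gene with shRING1B, shEZH2 and shBMI1; points are limma estimates from 2 arrays a group and bars are 95% intervals, not adjusted over genes. KLK7 with shRING1B lies at 1.46 with an interval of 0.63 to 2.28, and of the other 29 intervals those of KLK5 and KLK6 with shRING1B and of KLK10 with shBMI1 exclude 0.

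KLK10, whose product is made by normal epithelial cells and is reduced in several carcinomas, read 6.66 and 6.88 with shRING1B, 6.73 and 6.69 with shEZH2, 6.29 and 6.52 with shBMI1, and 6.54 and 7.03 with shGFP. It was lowest with shBMI1, at -0.38 ± 0.17 from shGFP (SE, n = 2 each; adjusted p = 0.890 by limma). The 2 shGFP arrays differed from each other by 0.50, more than that difference. KLK10 was the only member below an unadjusted p of 0.05 with shBMI1, where 2.69% of all genes were lower and 2.89% higher. It stood at the edge of that threshold, which it missed after quantile normalization, after median centring and in the fit of the 4 arrays compared. It also missed it on leaving out any array except shBMI1 replicate 2 or shGFP replicate 1, and was at -0.14 without shGFP replicate 2. Without shBMI1 replicate 2, KLK7 was lower at -0.89 while KLK11 was higher. KLK9 was lower without shGFP replicate 1 and higher without shGFP replicate 2. Both shBMI1 arrays lay below both shGFP arrays for KLK10 and KLK14, 2 of 10 members, against 17.8% of all genes. For 0 members did both lie above, against 14% of all genes. The median over the members was -0.016, with 3 of 10 positive, and over all genes -0.0094.

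KLK11, a trypsin-like protease, read 6.53 and 6.48 with shRING1B, 6.55 and 6.64 with shEZH2, 6.76 and 6.43 with shBMI1, and 6.48 and 6.44 with shGFP. Its group means all lay within 0.14 log2 units of that of shGFP. KLK9, a chymotrypsin-like member, read 6.25 and 6.13 with shRING1B, 6.05 and 6.18 with shEZH2, 6.02 and 5.94 with shBMI1, and 5.73 and 6.42 with shGFP. The 2 control arrays held both the lowest and the highest KLK9 value of all 8, a gap of 0.69 that is larger than for 99.33% of genes, so no hairpin separated from shGFP.

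KLK12 and KLK13, both trypsin-like, were among the dimmest 30% of genes, where RMA compresses differences. KLK12 read 5.16 and 4.48 with shRING1B, 4.72 and 4.95 with shEZH2, 4.67 and 5.01 with shBMI1, and 4.74 and 4.89 with shGFP. KLK13 read 5.28 and 4.73 with shRING1B, 5.15 and 5.17 with shEZH2, 4.93 and 4.86 with shBMI1, and 4.84 and 4.97 with shGFP. Both were at their highest on shRING1B replicate 1 and at their lowest on shRING1B replicate 2. KLK13 was 0.25 ± 0.16 higher with shEZH2 than with shGFP (SE, n = 2 each; adjusted p = 0.481 by limma), and KLK12 differed from shGFP by at most 0.021 with any hairpin.

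With shEZH2, 0 of 10 members had an unadjusted p under 0.05, a threshold passed by 7.53% of all genes upward and 8.65% downward. That count depended on the arrays fitted: in the fit of the 4 arrays compared KLK13 was higher at that threshold. Both shEZH2 arrays lay above both shGFP arrays for KLK11, KLK13 and KLK14, against 23.1% of all genes, and below for KLK8 alone, against 27%. The median log2 fold change was 0.065 over the members, 7 of them positive, and -0.0085 over all genes. The widest 95% interval among the members with shEZH2 was that of KLK7, -0.95 to 0.70.

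Set against each other, the hairpins gave 6 members (KLK5 to KLK10) with both shRING1B arrays above both shBMI1 arrays, where 19.3% of all genes did so, and 0 below both (17.1% of all genes). At an unadjusted p under 0.05, 3 of these were higher with shRING1B (KLK5, KLK6 and KLK7) and 0 lower, where 5.21% of all genes were higher and 3.98% lower. Between shRING1B and shEZH2, KLK7 and KLK8 were higher with shRING1B at that threshold (8.22% of all genes) and 0 were lower (7.35%). Both shRING1B arrays lay above both shEZH2 arrays for KLK6, KLK7 and KLK8 (25.6% of all genes) and below them for KLK11 and KLK14 (22.6%). Between shEZH2 and shBMI1, KLK14 was higher with shEZH2 at an unadjusted p under 0.05 (7.75% of all genes) and 0 were lower (7.32%). Both shEZH2 arrays lay above both shBMI1 arrays for KLK9, KLK10, KLK13 and KLK14 (22.9% of all genes) and below them for KLK8 (24.1%). The comparisons share arrays, so these counts are not independent of those with shGFP.

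Single arrays carried much of the spread. Replicate 2 of shRING1B held the highest value of KLK5, KLK6, KLK7 and KLK8 over all 8 arrays and the lowest of KLK12, KLK13 and KLK14. Replicate 1 of shBMI1 held the lowest value of KLK5, KLK6, KLK7 and KLK10 and the highest of KLK11. Over the 45 pairs of members the median Pearson r over 8 arrays was 0.15, from -0.66 for KLK8 with KLK14 to 0.92 for KLK13 with KLK14. KLK7 correlated at 0.88 with KLK5 and 0.84 with KLK6, and at 0.34 and 0.54 without the 2 shRING1B arrays. These correlations describe the same 8 arrays in 4 groups and carry no test.

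The pattern of KLK7 over the 8 arrays was compared with that of other genes. Among 2686 genes with an SD of at least 0.2 over the 8 arrays, those with the highest Pearson r to KLK7 were CNFN (0.98), UBL4B (0.98), CRISPLD2 (0.95), LCE3D (0.95) and ASB14 (0.94). Without the 2 shRING1B arrays, which lay farthest from the median of KLK7, r was 0.94, 0.96, 0.85, 0.83 and 0.76 in the same order. These 5 genes were picked on all 8 arrays, so their r, with or without the shRING1B arrays, describes that choice and carries no test. Spearman rho to KLK7 over the 8 arrays was 0.95 for CNFN, 0.81 for UBL4B, 0.74 for CRISPLD2, 0.90 for LCE3D and 0.83 for ASB14. Each of the 5, like KLK7, had its highest value on shRING1B replicate 2 and its lowest on shBMI1 replicate 1, which follows largely from the choice.

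CNFN encodes cornifelin and LCE3D a late cornified envelope protein, both components of the cornified envelope of the outer epidermis. CNFN read 8.97 and 9.71 with shRING1B, 8.71 and 8.61 with shEZH2, 8.20 and 8.72 with shBMI1, and 8.50 and 8.69 with shGFP. LCE3D read 7.54 and 8.45 with shRING1B, 6.77 and 6.73 with shEZH2, 6.20 and 6.98 with shBMI1, and 6.78 and 7.56 with shGFP. CNFN was above all other arrays on both shRING1B arrays, whereas LCE3D overlapped the control. Their log2 fold changes with shRING1B over shGFP were 0.74 ± 0.24 and 0.82 ± 0.36 (SE, n = 2 each; adjusted p = 0.439 and 0.586 by limma).

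**Figure D3:**
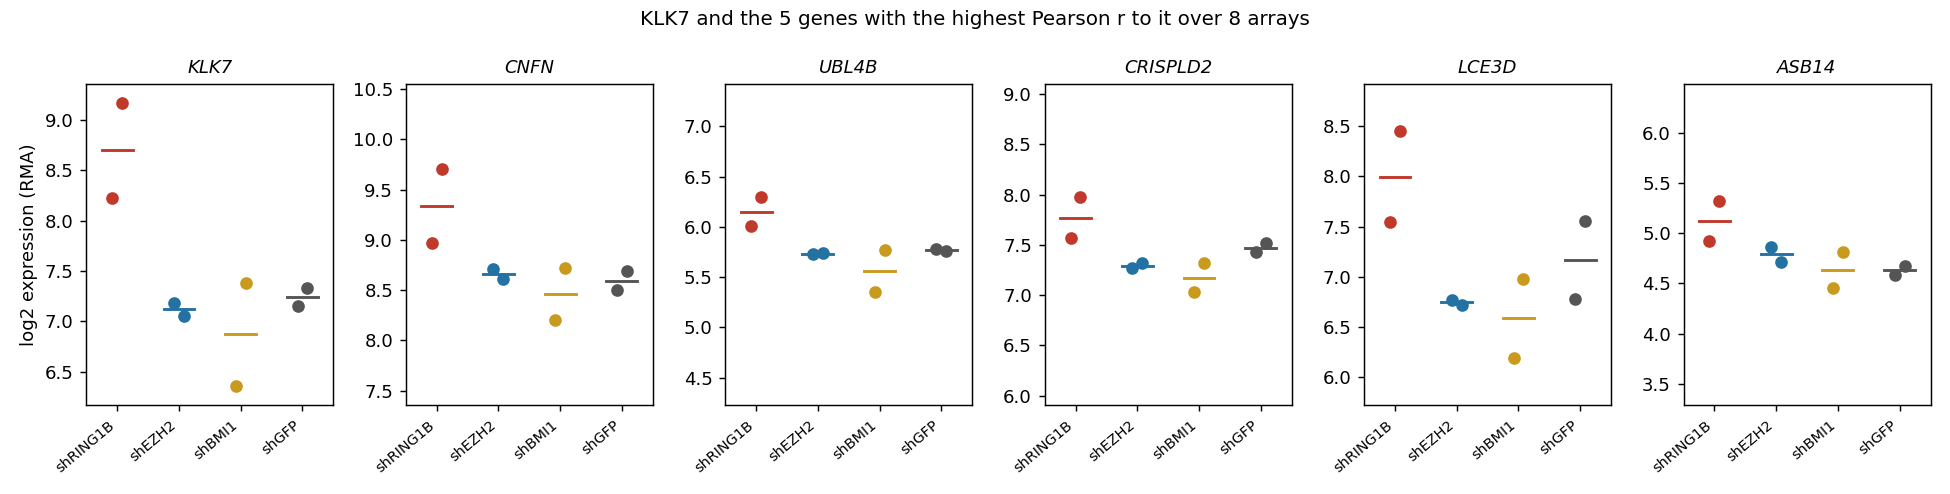
RMA log2 expression of KLK7 and of the 5 genes with the highest Pearson r to it over 8 arrays, by hairpin (points are arrays, lines are means of 2, and each vertical axis spans the same number of log2 units). In all 6 panels shRING1B replicate 2 is highest and shBMI1 replicate 1 lowest, with KLK7 reaching 9.17 and 6.36. The 5 genes were picked for likeness on these arrays, so the shared extremes follow largely from the choice.

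Granular layer genes did not share the direction of KLK7 as a list. Of 24 such genes 19 were measured and 0 passed in any comparison. With shRING1B 10 values were positive, of which 2 had an unadjusted p under 0.05, as did 3 of the negative ones, where 4.8% of all genes were higher and 3.8% lower. The median of the list was 0.0034. CERS3, the ceramide synthase that makes very long barrier lipids, was in the opposite direction to KLK7, at 5.80 and 5.88 with shRING1B, 6.41 and 6.26 with shEZH2, 6.30 and 6.24 with shBMI1, and 6.47 and 6.51 with shGFP. Its shRING1B arrays lay below all others, and its log2 fold change over shGFP was -0.65 ± 0.09 (adjusted p = 0.102 by limma). The list shares CNFN and LCE3D with the genes most like KLK7.

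Among inhibitors of the kallikreins, SLPI rose with shEZH2 while the kallikreins did not pass. SLPI, a secreted inhibitor that acts on KLK7, read 9.36 and 9.41 with shRING1B, 10.49 and 10.45 with shEZH2, 9.36 and 9.36 with shBMI1, and 9.44 and 9.54 with shGFP. Both shEZH2 arrays were about 1 log2 unit above every other array. The log2 fold change was 0.98 ± 0.08 over shGFP (SE, n = 2 each; adjusted p = 0.0049 by limma), a 1.98-fold rise. In the direct comparisons SLPI was at -1.09 ± 0.08 with shRING1B against shEZH2 (adjusted p = 0.0039) and at 1.11 ± 0.08 with shEZH2 against shBMI1 (adjusted p = 0.0027). Against shGFP the call was lost without shEZH2 replicate 1 (adjusted p = 0.0805) or replicate 2 (0.069), with the log2 fold change at 0.97 and 1.00. Against shRING1B it was also lost without either shEZH2 array or shRING1B replicate 2 (adjusted p up to 0.0919), and against shBMI1 without shEZH2 replicate 1 (0.0555). Of 13 inhibitors listed 4 were measured, and WFDC5, WFDC12 and A2ML1 did not pass in any comparison. SPINK5 was not analysed here.

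Of the markers of other cell types, DCN and MLANA passed with shEZH2 against shGFP. The matrix proteoglycan DCN, a fibroblast marker, read 8.03 and 7.86 with shEZH2, against 6.94 and 7.08 with shGFP (log2 fold change 0.93 ± 0.10, adjusted p = 0.0109 by limma). The melanocyte marker MLANA read 4.80 and 4.85 with shEZH2, against 4.18 and 4.19 with shGFP (0.64 ± 0.11, adjusted p = 0.046). Both calls were lost on leaving out either array of shEZH2 or of shGFP (adjusted p up to 0.135 for DCN and 0.281 for MLANA). That of MLANA held in 5 of 15 alternatives, and was also lost without either shRING1B array, with the replicate number as a block, in a fit of the 4 arrays compared, after quantile normalization and after median centring. Of 6 fibroblast markers listed 2 were measured. The other, LUM, read 4.75 and 5.33 with shEZH2, against 3.94 and 4.36 with shGFP (log2 fold change 0.89), and did not pass. Both fibroblast markers had an unadjusted p under 0.05 by limma, where 7.53% of all genes were higher. For both, the shEZH2 arrays lay above both shGFP arrays, against 23.1% of all genes. The other 4 of 5 measured melanocyte genes did not pass, nor did any of 3 leukocyte, 3 endothelial and 4 gland markers. Positive values with shEZH2 stood at 2 of 2 fibroblast markers (median 0.91), 3 of 5 melanocyte (0.0024) and 3 of 3 leukocyte markers (0.16). They stood at 1 of 3 endothelial (-0.11) and 3 of 4 gland markers (0.070), with LTF of the last at -0.44. No marker is at 0, because array values have no true zero. The part of these cell type markers in the SLPI result was not tested.

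Of the enzymes that activate kallikreins or are activated with them, 2 of 15 were measured. ST14 encodes matriptase, the membrane protease that activates KLK5 and KLK7 precursors, and read 7.53 and 7.51 with shRING1B, 7.69 and 7.70 with shEZH2, 7.18 and 7.14 with shBMI1, and 7.68 and 7.56 with shGFP. The shBMI1 arrays lay below all others. The difference from shGFP was -0.46 ± 0.08 (SE, n = 2 each; adjusted p = 0.397 by limma) and did not pass, but shEZH2 was higher than shBMI1 by 0.54 ± 0.08 (adjusted p = 0.031). That call passed in 7 of 16 alternatives and was lost on leaving out any 1 of the 8 arrays (adjusted p of 0.0516 to 0.221). HPN, a related membrane protease, did not pass in any comparison.

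No substrate of the cascade passed, and the best known of them varied widely between arrays of a hairpin. CDSN, the corneodesmosin cut by KLK5 and KLK7, read 7.07 and 8.26 with shRING1B, 7.86 and 7.84 with shEZH2, 6.75 and 7.52 with shBMI1, and 7.48 and 8.42 with shGFP. The 2 arrays lay far apart for every hairpin but shEZH2, and only the ranges of shEZH2 and shBMI1 did not overlap. The difference of shBMI1 from shGFP was -0.81 ± 0.43 (SE, n = 2 each; adjusted p = 0.930 by limma) and that of shRING1B from shGFP -0.29 ± 0.43. Of 12 listed substrates and receptors 8 were measured, and 0 passed in any comparison. The thrombin receptor F2R was at 0.22 ± 0.13 with shRING1B, 0.30 ± 0.13 with shEZH2 and 0.33 ± 0.13 with shBMI1. The cytokine TSLP, which keratinocytes release downstream of kallikrein signalling in Netherton syndrome, was at 0.31 ± 0.08 with shEZH2 (adjusted p = 0.131). It was at 0.25 ± 0.08 with shRING1B (adjusted p = 0.440 by limma). Its shBMI1 arrays read 5.76 and 5.81, against 5.78 and 5.78 with shGFP.

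Among 15 transcription factors of keratinocyte differentiation 8 were measured, and 0 passed against shGFP. EHF, an epithelial ETS factor, read 8.76 and 8.60 with shRING1B, 8.86 and 8.86 with shEZH2, 8.03 and 8.28 with shBMI1, and 8.32 and 8.34 with shGFP. It was above both shGFP arrays on all arrays of shRING1B and shEZH2, by 0.35 ± 0.11 and 0.53 ± 0.11 (SE, n = 2 each; adjusted p = 0.410 and 0.0816 by limma). It was higher with shEZH2 than with shBMI1 by 0.71 ± 0.11 (adjusted p = 0.0258), a call lost in the fit of the 4 arrays compared (adjusted p = 0.0883) and on leaving out either array of shEZH2, shBMI1 or shGFP (adjusted p of 0.0514 to 0.193). The repressor OVOL1 was at -0.30 ± 0.12 with shBMI1 and GRHL1 at 0.21 ± 0.18, and neither passed.

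Squamous keratinocyte markers had mostly negative values with all 3 targeting hairpins, and 0 passed against shGFP. Of 6 measured genes 6 were negative with shRING1B (median -0.25), 5 with shEZH2 (-0.25) and 6 with shBMI1 (-0.15). Of all 14884 genes 7564, 7727 and 7955 were negative in the same order. The 3 comparisons share the same 2 control arrays, so their like direction is not independent. KRT14 read 9.04 and 9.29 with shRING1B, against 9.61 and 9.72 with shGFP, a log2 fold change of -0.50 ± 0.13 (SE, n = 2 each; adjusted p = 0.347 by limma). With shEZH2 KRT14 was at -0.57 ± 0.13 (adjusted p = 0.0999). DSG3, a desmosomal cadherin of the lower epidermis, read 9.22 and 9.46 with shRING1B, against 9.76 and 10.09 with shGFP (-0.58 ± 0.13, adjusted p = 0.310). It was the positive one with shEZH2, at 0.43 ± 0.13 (adjusted p = 0.176). Between hairpins DSG3 passed, at -1.01 for shRING1B against shEZH2 and at 0.91 for shEZH2 against shBMI1. The first call was lost in the fit of the 4 arrays compared and on leaving out any array of either hairpin (log2 fold change -1.13 to -0.89 over alternatives). The second was lost on leaving out any array of shEZH2 or shBMI1 (0.86 to 0.94). The part of these markers in the kallikrein values was not tested.

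The genes that flank the kallikreins gave a further setting for the values of the locus. Within 300 kb of the outermost kallikrein gene in the RefSeq table (GRCh38.p14, used here only for order), 15 of 48 other genes were measured, and 0 passed in any comparison. With shRING1B 0 of the 15 had an unadjusted p under 0.05, and their median was 0.089. For 3 of them both shRING1B arrays lay above both shGFP arrays, and for 2 below, where 18.2% of all genes lay above and 19.1% below. The 3 of largest change were C19orf81, at 0.36 ± 0.12 with shEZH2, SNAR-F, at 0.27 ± 0.19 with shBMI1, and NKG7, at 0.27 ± 0.10 with shBMI1 (SE, n = 2 each; adjusted p = 0.203, 0.969 and 0.814 by limma). SNAR-F belongs to a family of near-identical small RNA genes, so its value is uncertain.

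**Figure D4:**
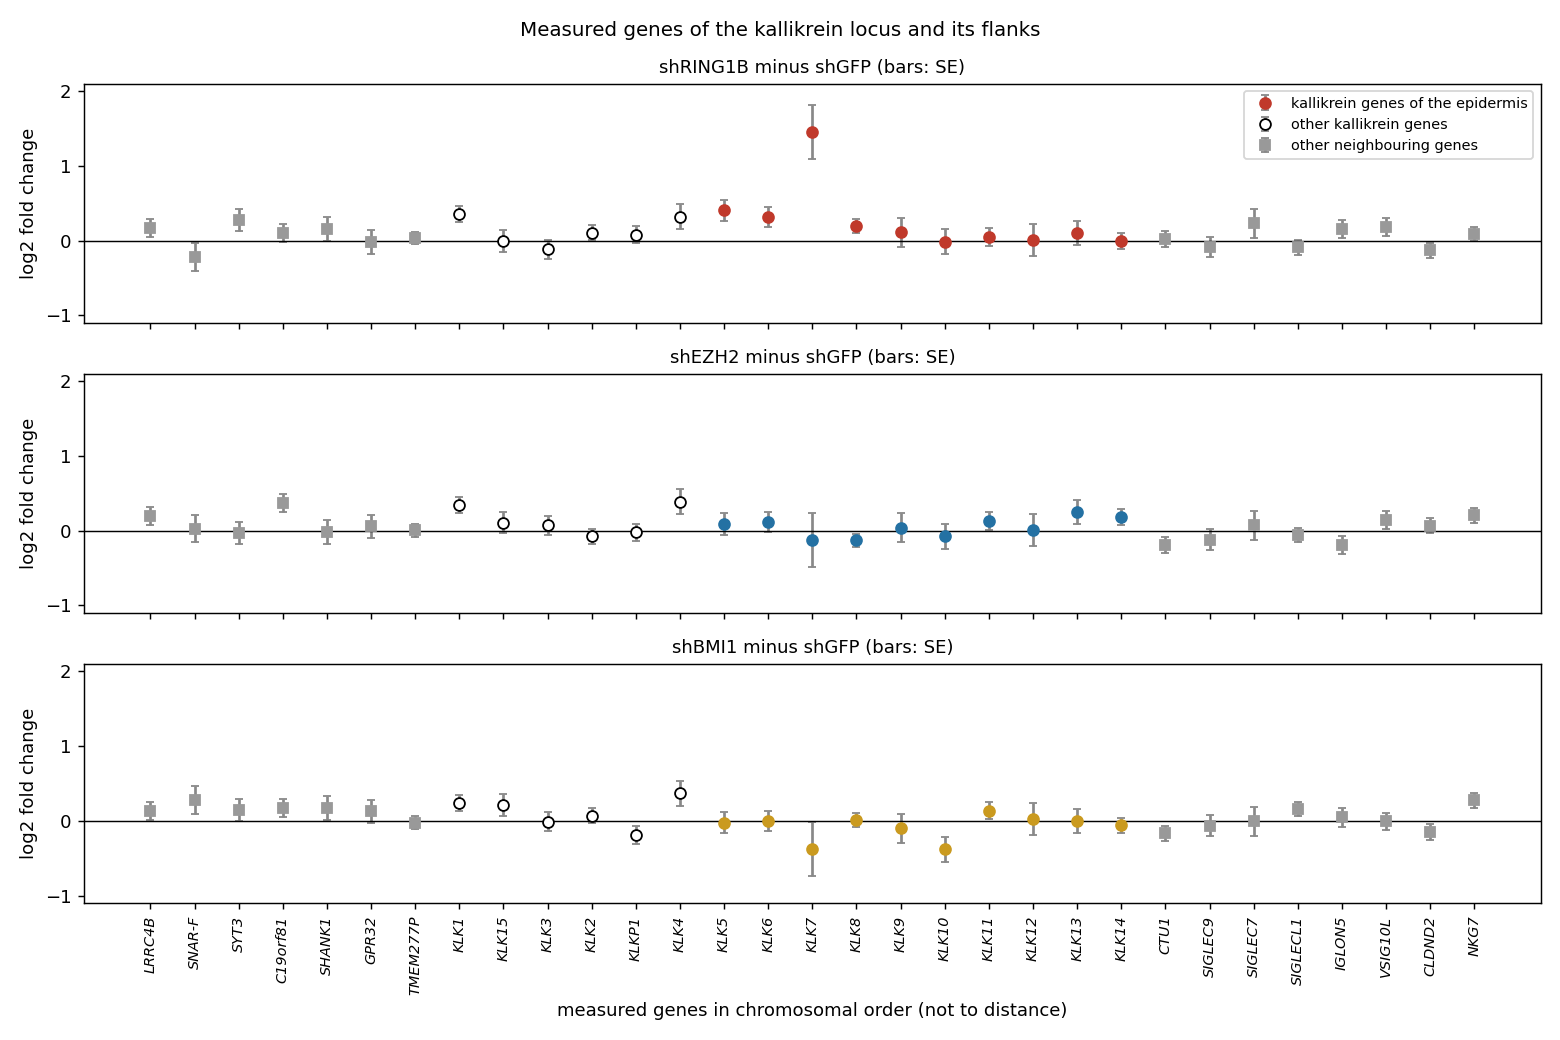
Log2 fold change over shGFP (vertical axes) of the measured genes of the kallikrein locus and its flanks in chromosomal order (horizontal axis, not to distance), with shRING1B, shEZH2 and shBMI1; points are limma estimates from 2 arrays a group and bars are SE. With shRING1B KLK7 stands at 1.46, between KLK5 at 0.41, KLK6 at 0.32 and KLK8 at 0.20, and 0 genes in any panel pass the adjusted threshold.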

How the data were processed

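The deposited values are RMA log2 expression of each probe set, per the submitters' processing notes, where limma is named too. RMA corrects background, gives all arrays 1 distribution by quantile normalization and summarises probes, so it hides a shift common to most genes and understates changes of dim ones. The genome build and software versions, not given in the sources used here, are unknown. Of 53617 probe sets, 16098 had 1 symbol in the platform annotation and 37519 had none. For genes with several, the probe set with the highest mean was used, leaving 14884 genes.

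A mean per hairpin was fitted over all 8 arrays with limma 3.58.1 in R 4.3.3 (4 residual degrees of freedom, moderation without trend, no filter on dim genes). P-values are two-sided and were adjusted within each comparison by Benjamini-Hochberg over all genes. Errors are standard errors of this fit, and 95% intervals are not adjusted over genes. The number of arrays limits the precision. The fit was also tested on simulated data with independent noise on each array and no shared replicate effect.

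The kallikreins and all other gene lists were chosen with earlier results of these data known. Named are all members, up to 3 measured genes of each list with the largest change against shGFP, the 5 genes with the highest Pearson r to KLK7 and 3 flanking genes; other names were chosen after their values were seen. Promoter windows, and the order of genes on the chromosome, come from RefSeq (GRCh38.p14). Alternatives were a block for the replicate number, a fit of the compared arrays alone, no shEZH2 arrays, quantile normalization, median centring, no dim genes, the mean of probe sets, trended robust moderation, each array left out and, chosen after seeing the data, protein-coding genes only. Their effect is in the closing section.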

Additional observations from a re-analysis of the deposited data

How the results depend on the processing

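The count of kallikreins past the threshold stayed 0 in all 6 comparisons under every alternative except 1. Leaving out the dimmest 30% of genes gave 1 call in shRING1B against shEZH2, KLK7 (adjusted p = 0.0466 by limma, against 0.107 over all genes). That fit adjusted over 10419 genes and called 361 of them, against 86 of 14884. The SE of KLK7 was 0.344 there, against 0.359, and its unadjusted p by limma 0.0014, against 0.0022. Over the alternatives, the smallest adjusted p of any member was 0.20 to 0.616 for shRING1B against shGFP, 0.240 to 0.635 for shEZH2 and 0.590 to 1.00 for shBMI1 against shGFP. With the replicate number as a block 0 members were called in every comparison, and KLK7 had adjusted p = 0.211 with shRING1B against shGFP. No label ties equal numbers to a batch. Over all genes, differences between replicates correlated between groups at 0.00066 to 0.25, and the numbers were not taken as pairs. For KLK7, replicate 2 read above replicate 1 with shRING1B, shBMI1 and shGFP, and below it with shEZH2. CNFN, LCE3D and CDSN went the same way, while members such as KLK12 and KLK14 did not. Under the block the SE of KLK7 was 0.274, against 0.359 in the main fit. Whether equal numbers share a batch was not tested. Leaving out the shEZH2 arrays gives no value for the comparisons that need them.

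Signs of values near 0 turned, and the cause was not tested. After quantile normalization KLK12 was at -0.018 with shRING1B, and KLK9 at -0.012 and KLK12 at -0.023 with shEZH2. After median centring KLK12 was at -0.011 with shRING1B and -0.024 with shEZH2, and KLK6 was at 0.0098 and KLK13 at 0.0069 with shBMI1. On leaving out each array, signs turned with shRING1B for KLK9 (-0.23 to 0.46), KLK10 (-0.26 to 0.23), KLK12 (-0.33 to 0.34), KLK13 (-0.17 to 0.37) and KLK14 (-0.14 to 0.13). With shEZH2 they turned for KLK5 (-0.052 to 0.23), KLK9 (-0.31 to 0.38), KLK10 (-0.32 to 0.17) and KLK12 (-0.10 to 0.13). With shBMI1 they turned for KLK5 (-0.094 to 0.046), KLK6 (-0.15 to 0.14), KLK7 (-0.89 to 0.14), KLK8 (-0.032 to 0.047), KLK9 (-0.44 to 0.25), KLK11 (-0.030 to 0.30), KLK12 (-0.15 to 0.19) and KLK13 (-0.075 to 0.059). KLK5 to KLK8 with shRING1B kept their positive sign under all alternatives run. With 2 arrays a hairpin, and dim signal for KLK12 and KLK13, the 95% intervals that include 0 leave room for a change of either sign.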

Other observations

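The 5 other tissue kallikreins, KLK1, KLK2, KLK3, KLK4 and KLK15, lie on the side of KLK5 away from KLK14, and 0 of them passed in any comparison. Both shRING1B arrays lay above both shGFP arrays for 3 of these 5 (KLK1, KLK2 and KLK4), against 4 of the 10 epidermal members. For 0 of the 5 did both lie below. Their median log2 fold change with shRING1B was 0.10, against 0.11 over the 10, so this direction was not particular to the epidermal members. KLK1, true tissue kallikrein, which releases kinins, read 6.46 and 6.56 with shRING1B, 6.62 and 6.38 with shEZH2, 6.33 and 6.46 with shBMI1, and 6.12 and 6.20 with shGFP. All 6 arrays of the targeting hairpins lay above both control arrays. KLK4, best known as an enamel protease, read 5.19 and 5.77 with shRING1B, 5.53 and 5.58 with shEZH2, 5.55 and 5.51 with shBMI1, and 5.17 and 5.15 with shGFP. It too was above both control arrays on all 6. For single hairpins, both arrays lay above both shGFP arrays in 18.2% of all genes with shRING1B, 23.1% with shEZH2 and 14% with shBMI1. The share of all genes above both control arrays on all 6 was not counted, so KLK1 and KLK4 cannot be called unusual in this.

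By limma the log2 fold changes of KLK1 over shGFP were 0.35 ± 0.11, 0.34 ± 0.11 and 0.24 ± 0.11 with shRING1B, shEZH2 and shBMI1 (SE, n = 2 each; adjusted p = 0.411, 0.188 and 0.903). Those of KLK4 were 0.32 ± 0.16, 0.39 ± 0.16 and 0.37 ± 0.16 (adjusted p = 0.653, 0.298 and 0.899). The 3 comparisons share the same 2 control arrays, so their like direction is not independent. The pseudogene KLKP1 read 5.10 and 5.17 with shRING1B, 4.98 and 5.09 with shEZH2, 4.86 and 4.87 with shBMI1, and 5.21 and 4.90 with shGFP. Its shBMI1 arrays were the lowest, at -0.19 ± 0.11 from shGFP (adjusted p = 0.95).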
